A study of Homo sapiens with 6 samples.

Results

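Binding of the glucocorticoid receptor (GR) around 9 genes of the circadian clock was read from 12 ChIP-seq peak lists. The genes were PER1, PER2, PER3, CRY1, CRY2, NR1D1, BHLHE40, ARNTL (also named BMAL1) and CLOCK, and a peak was taken as a member when its centre fell in the gene's hg19 window, the gene body with about 50 kb on each side. This gave 65 of the 116356 peaks of the series. ChIP-seq recovers DNA fixed to a protein, here with an antibody to GR, and a peak is a place where more fragments were found than in the surroundings or in input DNA. The peaks came from a pair of stable lines made from U-2OS, a human osteosarcoma line. One, the GR cell, carried GR, and the other, the MR/GR cell, carried the mineralocorticoid receptor (MR), a related steroid receptor, together with GR. Each line received vehicle (DMSO) or 100 nM dexamethasone, a synthetic glucocorticoid, for 2 hr. With 2 lines and 2 treatments there were 4 combinations, and 3 numbered peak lists for each (n = 3); each receptor make-up is seen in 1 line only. Whether the lists of a combination stem from separate cultures is not given in the sources used here, so p-values cover only how far lists differ, and that spread may be technical. The lists give positions without heights, and read depth is unknown, so a place without a peak may be unbound or lie under the calling threshold.

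The molecular clock is a feedback loop. CLOCK and ARNTL form the dimer that switches on genes carrying an E-box, among them the PER and CRY genes, whose proteins then inhibit that dimer. NR1D1 (REV-ERBα) is a nuclear receptor that represses ARNTL, and BHLHE40 (DEC1) is a repressor that competes at E-boxes. Glucocorticoids reset the clocks of many peripheral tissues, and PER1 is a textbook direct target of GR.

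A window holds more than its clock gene. In the RefSeq gene table (GRCh38, used only for gene order), the other coding genes within 50 kb number 5 for PER1, 3 for PER2, 3 for PER3, 2 for CRY1, 6 for CRY2, 4 for NR1D1, 0 for BHLHE40, 1 for ARNTL and 3 for CLOCK. A peak is therefore described by its place and not assigned to a gene. Window edges were given to 10 kb, so a distance to a gene end is approximate by about that much, and below it is measured from the 5′ end so rounded. Promoter and transcript features of hg19 were not used here.

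Sequences just before the transcription start are shown for 3 of the 4 members with a site of all GR-cell dexamethasone lists close to the rounded 5′ end. The other, ARNTL, has 2 listed starts, and neither held a searched motif. Each run is the 250 bases before the start, 5′ to 3′ on the gene's minus strand for PER1 and PER2 and on the plus strand for BHLHE40, from RefSeq (GRCh38.p14). They lie at chr17:8152405-8152654, chr2:238288611-238288860 and chr3:4979187-4979436 in that build, which is not the build of the peaks, so peaks were not placed on them. Capitals mark the E-box CACGTG, the GR half-site AGAACA, read as TGTTCT on the other strand, and the half-site of NR1D1 and the ROR receptors, AGGTCA, here as TGACCT on the other strand.
PER1: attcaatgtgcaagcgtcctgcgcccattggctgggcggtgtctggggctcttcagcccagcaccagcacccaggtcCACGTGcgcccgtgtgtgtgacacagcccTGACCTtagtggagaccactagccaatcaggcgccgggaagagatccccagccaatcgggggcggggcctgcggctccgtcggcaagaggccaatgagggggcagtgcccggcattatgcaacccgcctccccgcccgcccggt
PER2: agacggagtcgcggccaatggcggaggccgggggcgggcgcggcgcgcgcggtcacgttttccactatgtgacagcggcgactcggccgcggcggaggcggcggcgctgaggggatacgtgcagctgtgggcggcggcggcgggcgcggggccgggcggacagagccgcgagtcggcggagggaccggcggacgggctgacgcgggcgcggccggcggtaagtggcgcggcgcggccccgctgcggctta
BHLHE40: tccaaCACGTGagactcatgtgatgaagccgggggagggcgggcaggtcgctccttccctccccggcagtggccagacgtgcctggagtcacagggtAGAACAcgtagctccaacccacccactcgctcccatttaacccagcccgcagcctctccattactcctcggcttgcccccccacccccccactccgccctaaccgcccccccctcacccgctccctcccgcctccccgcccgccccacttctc
The PER1 run held an E-box beginning 173 bases before the start and an NR1D1/ROR half-site beginning at 144. The BHLHE40 run held an E-box beginning at 245 and a GR half-site beginning at 153. No searched motif was in the PER2 run. Of the 13 starts listed for the 9 genes, all of which matched the table, 2 held the E-box, 1 the GR half-site and 3 the NR1D1/ROR half-site (1 in PER1 and both starts of CRY2). Over all 35116 promoters of the table, searched on both strands over the same 250 bases, the shares were 6.34%, 12.4% and 12.1%. The full GR palindrome, AGAACA and TGTTCT with 3 bases between them, was in none of the 13 and in 1 of 35116. A match is a run of letters, not a measured site.

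In the GR cell, GR peaks were found after dexamethasone in the windows of 8 of the 9 clock genes, all but PER3. In the MR/GR cell the same treatment gave peaks in 5 windows, and 2 places were found in all 3 of its lists, 1 near PER1 and 1 in the NR1D1 window. The 8 and the 5 take a peak in at least 1 of a line's 3 lists, and CRY1 entered through 1 peak of GR-cell list 2. The same count was not made for other stretches of the genome, so these numbers have no background. A background is given below for sites in 2 or 3 lists of a line. Without ligand there was 1 peak in the 9 windows over the 6 vehicle lists. The windows held 20, 16 and 14 peaks in GR-cell dexamethasone lists 1, 2 and 3 (16.7 ± 3.06, mean ± SD, n = 3) and 3, 9 and 2 in those of the MR/GR cell (4.67 ± 3.79, n = 3). Each GR-cell list was above each MR/GR-cell list, and MR/GR-cell list 2 held most of that line's peaks. The ratio of the means was 3.57, and on the log2(peaks + 1) scale MR/GR minus GR was -1.83 (SE 0.54; two-sided exact permutation test, p = 0.1, which is the floor for 3 lists against 3).

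The lists of the lines also differ in length, in the same direction. After dexamethasone the shortest and longest lists had 26191 and 37650 peaks for the GR cell, and 3713 and 10459 for the MR/GR cell, and the ratio of mean lengths was 4.55. Its part in the clock counts was looked at by scaling each list. Per 10000 peaks of a list, the clock windows had 5.31, 5.18 and 5.35 peaks in the GR cell and 8.08, 8.61 and 3.003 in the MR/GR cell. The GR-cell shares lay close together, and the MR/GR-cell shares lay on both sides of them. The MR/GR-minus-GR difference was 1.28 per 10000 (SE 1.79; p = 0.4 in a two-sided exact permutation test), with 0.26 when MR/GR list 2 was left out and 3.06 without its list 3. Without the NR1D1 window it was -0.82, and over the gene bodies alone -0.00457, so its sign rested on the windows counted. A difference of the clock windows beyond list length was thus not detectable with these lists.

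**Figure D1:**
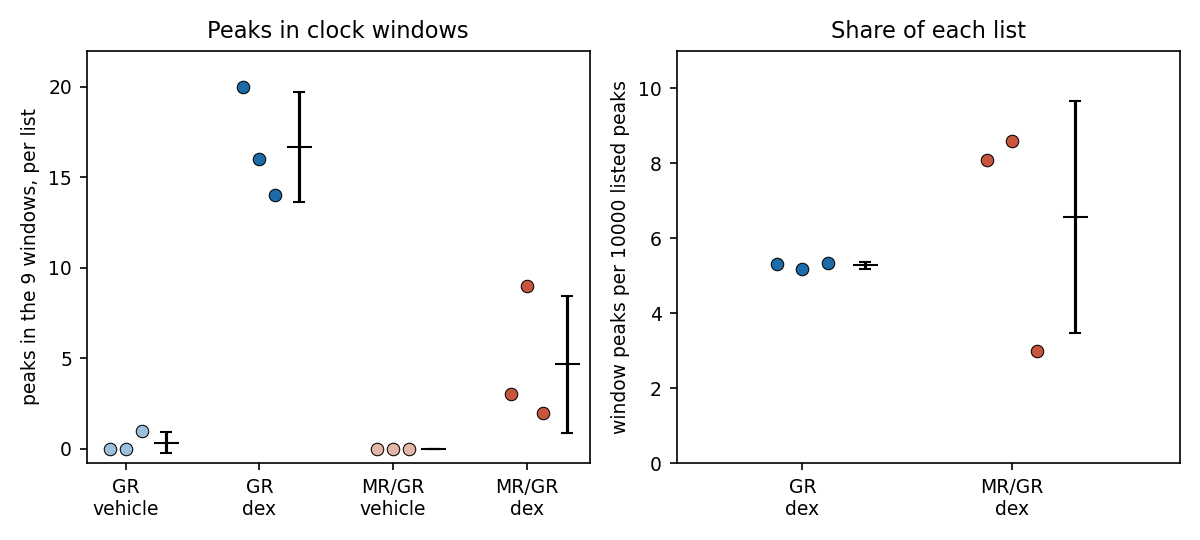
Left, peaks in the 9 clock windows per list (y axis, number) for the 4 combinations of line and treatment (x axis); right, the same per 10000 peaks of the list for the dexamethasone lists. Points are lists 1 to 3 from left to right, and the dash and bar are the mean ± SD (n = 3); the GR-cell dexamethasone lists hold 14 to 20 peaks, those of the MR/GR cell 2 to 9, and the shares overlap.

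Of the 65 clock-window peaks, 64 (98.5%) were in the dexamethasone lists, near the 99.3% of all 116356 peaks. Vehicle lists had 0, 0 and 1 clock-window peaks in the GR cell and 0, 0 and 0 in the MR/GR cell, out of 588 and 183 vehicle peaks. The dexamethasone-minus-vehicle difference in log2(peaks + 1) was 3.80 in the GR cell (SE 0.36) and 2.30 in the MR/GR cell (SE 0.52), and each exact permutation test gave p = 0.1, as low as the design goes. Averaged over both lines it was 3.05, tested by permuting the treatments of each line (SE 0.32; two-sided exact permutation test over 400 arrangements, p = 0.005, their floor). These counts are not scaled to list length, and the dexamethasone lists of the GR and MR/GR cell total 94753 and 20832 peaks, so the response is not one of the clock windows alone. The longest vehicle list had 238 peaks and the shortest dexamethasone list 3713. The 3 tests, with the p of 0.005, therefore cannot tell a response of the clock windows from the difference in list length. Per 10000 peaks of a list, the GR-cell value was 14.6 ± 25.3 with vehicle, from 1 peak in 1 of 3 lists, and 5.28 ± 0.0897 with dexamethasone (SD, n = 3 each), and in the MR/GR cell it was 0 in each vehicle list and 6.56 ± 3.09 with dexamethasone. Each treated list had more clock-window peaks than each vehicle list of its line. Whether this difference is unequal between the lines was not tested.

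**Figure D2:**
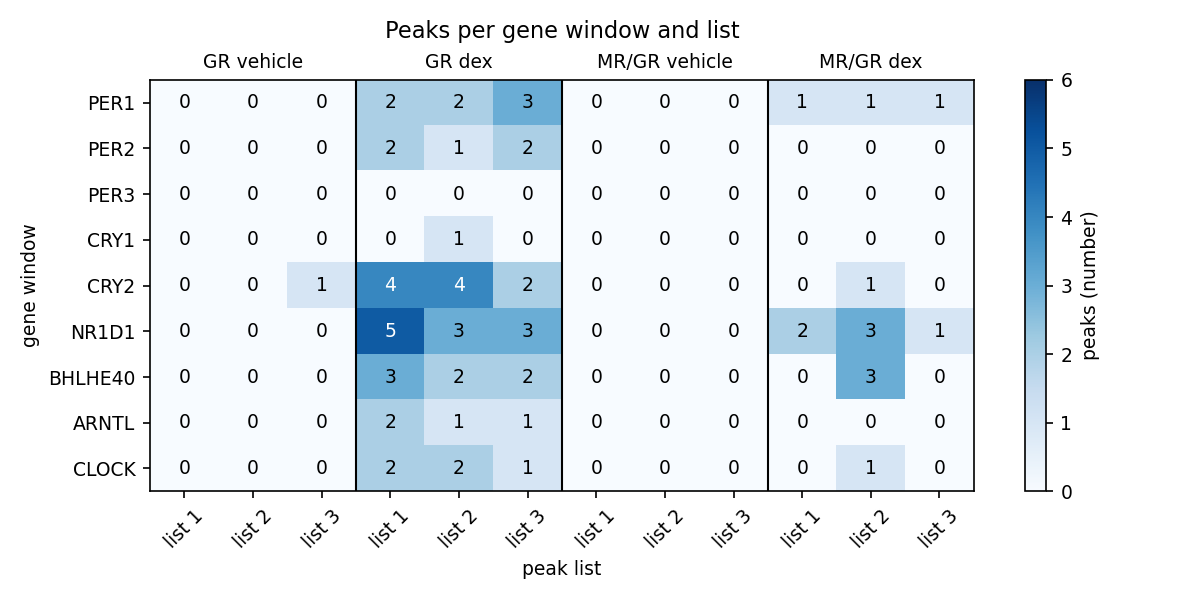
Number of GR peaks in each gene window (rows) in each of the 12 lists (columns, grouped by line and treatment), with the count printed in each cell and darker blue for more. NR1D1 and CRY2 have the most peaks in the GR-cell dexamethasone lists, PER3 has none, and MR/GR-cell list 2 alone fills the BHLHE40, CRY2 and CLOCK rows of that line.

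To compare places, overlapping peaks of the 6 dexamethasone lists were joined into sites genome-wide. A line was said to hold a site if 2 or 3 of that line's lists showed it. The clock windows contained 26 sites. The GR cell held 16 of them, 61.5%, against 69.5% of all 43713 sites. The MR/GR cell held 2 of the 26, against 5965 of all 43713 sites, and both were among the 16. Of the GR-cell sites in the clock windows, 12.5% were thus also held by the MR/GR cell, beside 17.9% of all GR-cell sites. The Wilson 95% interval of the 12.5% was 3.50 to 36.02, counting error only. It takes sites as independent, which neighbouring sites are not, and is too wide to decide whether the shares differ. The 16 sites gave 10.96 per Mb in the windows, and all GR-cell sites gave 10.3 per Mb of the spanned chromosomes. For the MR/GR cell the values were 1.37 per Mb in the windows and 2.03 per Mb of the spanned chromosomes. By window, 7 of 9 clock windows had a GR-cell site and 2 of 9 an MR/GR-cell site. Among genome tiles of 162 kb, the mean window length, 69.4% had a GR-cell site and 22.8% an MR/GR-cell site. The tiles also cover stretches with few genes. In the GR-cell counts and the counts by window the clock windows were near the background. The number of MR/GR-cell sites and their number per Mb lay below it. They rest on 2 sites, and the difference was not tested.

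The PER genes encode the inhibitors that accumulate and shut off the CLOCK-ARNTL dimer. PER1 had 2, 2 and 3 peaks in the GR-cell dexamethasone lists and 1, 1 and 1 in those of the MR/GR cell. The lists of the lines did not overlap (exact permutation p = 0.1, adjusted p = 0.225 by Benjamini-Hochberg over 9 windows). A pair of sites made up most of these peaks. The site at chromosome 17, 8057595 to 8058029 (hg19, counted from 1), was in all 6 dexamethasone lists, and the site at 8055031 to 8055459, 2.14 kb away, was in every GR-cell list and absent from the MR/GR cell. They lay 2.19 and 4.76 kb inside the rounded 5′ end, a distance within the rounding, so on which side of the true start they lie cannot be told. Sites in all 6 lists are 6.9% of all sites. At the shared PER1 site, peak centres spanned 53 bp over the GR-cell lists and 15 bp over the MR/GR-cell lists, and the mean centres were 28.7 bp apart. Peaks were 280 to 424 bp wide over the treated lists. Only overlapping peaks were joined into a site, so centres within about a peak width follow largely from the joining. The remaining PER1 site, 30.7 kb before the 5′ end (8090465 to 8090888), was in GR-cell list 3 alone.

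PER2 had peaks in the GR cell and none in any MR/GR-cell list. Its window had 2, 1 and 2 peaks in the GR-cell dexamethasone lists, and the exact permutation test against the 3 empty MR/GR-cell lists gave p = 0.1. The site near the 5′ end, chromosome 2, 239197309 to 239197798, was in 3 of 3 GR-cell lists. It lay 2.45 kb inside the rounded end, a distance within the rounding, so its side of the true start cannot be told. The other, 239175117 to 239175542, was in GR-cell lists 1 and 3 and lay 24.7 kb inside. PER3 had no peak in any of the 12 lists. The nearest treated sites lay 71.6 kb beyond one edge of its window (2 GR-cell lists) and 105 kb beyond the other (all 6 lists).

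The CRY proteins are the partners of PER in the inhibitory complex, and their windows differed. CRY1 had a peak in GR-cell list 2 alone, at chromosome 12, 107417060 to 107417425, inside the gene. CRY2 had 4, 4 and 2 peaks in the GR-cell dexamethasone lists and 0, 1 and 0 in the MR/GR-cell lists, again without overlap (exact permutation p = 0.1). All 4 of its sites were held by the GR cell and none by the MR/GR cell. The pair at chromosome 11, 45897935 to 45898358 and 45901641 to 45902093, 3.28 kb apart towards the 3′ end of the gene, was in 3 of 3 GR-cell lists. The second of them also had the peak of MR/GR-cell list 2. A site 29.04 kb before the 5′ end (45830767 to 45831155), the side of SLC35C1, was in GR-cell lists 1 and 2. A site 11.4 kb past the 3′ end (45921170 to 45921671), the side of MAPK8IP1 and 4 other coding genes, was in the same lists. It overlapped the only vehicle peak of the clock windows, from GR-cell vehicle list 3. Over the genome, 321 of the 588 GR-cell vehicle peaks overlapped a site held by the GR cell.

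The activators had 4 (ARNTL) and 5 (CLOCK) peaks over the GR-cell lists, in the range of the inhibitors, and as at PER2 none of their GR-cell sites had an MR/GR-cell peak. ARNTL had 2, 1 and 1 peaks in the GR-cell dexamethasone lists and none in the MR/GR-cell lists (exact permutation p = 0.1). Its site in all 3 GR-cell lists was at chromosome 11, 13304425 to 13304848, 4.64 kb inside the rounded 5′ end, which is within the rounding. A site 17.8 kb before that end, 13282050 to 13282403, was in GR-cell list 1 alone. CLOCK had 2, 2 and 1 peaks in the GR-cell lists and 0, 1 and 0 in the MR/GR-cell lists, which overlap at 1 (exact permutation p = 0.2). Its GR-cell sites lay 33.3 and 41.5 kb before the 5′ end, on the side of PDCL2 and NMU. That at chromosome 4, 56453115 to 56453547, was in 3 GR-cell lists and that at 56461255 to 56461659 in lists 1 and 2. The MR/GR-cell peak lay elsewhere, at 56412195 to 56412478, in list 2 alone. It was 7.66 kb inside the rounded 5′ end, also within the rounding.

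NR1D1 had the highest total in each line's dexamethasone lists, with 5, 3 and 3 in the GR cell and 2, 3 and 1 in the MR/GR cell. In single lists other windows reached or passed it, as CRY2 did with 4 in GR-cell list 2. The lists of the lines overlapped at 3 (exact permutation p = 0.3). Its window held 6 sites, and the 3 held by the GR cell all lay past the 3′ end, on the side of THRA, a thyroid hormone receptor gene that overlaps NR1D1, and of MED24. The site at chromosome 17, 38231318 to 38231741, 18.5 kb past the rounded 3′ end, was in all 6 dexamethasone lists. Its peak centres spanned 20 bp over the GR-cell lists and 1 bp over the MR/GR-cell lists, and the mean centres were 11 bp apart. At 38226456 to 38226886, 4.43 kb away, all 3 GR-cell lists had a peak and the MR/GR cell had none. At 38215993 to 38216416 all 3 GR-cell lists and MR/GR-cell list 1 had one. Between these, MR/GR-cell list 2 alone had a peak at 38219053 to 38219336. Near the 5′ end of NR1D1 itself there was a peak in GR-cell list 1 alone (38257299 to 38257652). The sixth site, 38296524 to 38297132, 36.8 kb before the 5′ end, joined a peak of GR-cell list 1 with a peak of MR/GR-cell list 2 whose centres were 290 bp apart.

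BHLHE40 had 3, 2 and 2 peaks in the GR-cell dexamethasone lists and 0, 3 and 0 in the MR/GR-cell lists, so the lists overlapped and list 2 carried all of the MR/GR-cell peaks (exact permutation p = 0.4). The site at chromosome 3, 5020504 to 5021011, was in 3 GR-cell lists and MR/GR-cell list 2. It lay 0.757 kb inside the rounded 5′ end, a distance within the rounding, so its side of the true start cannot be told. Its peak centres spread over 187 bp. The site at 5061693 to 5062133, 31.9 kb past the 3′ end, was in every GR-cell list and absent from the MR/GR cell. MR/GR-cell list 2 alone had peaks at 5065031 to 5065314 and 5068207 to 5068490, within a few kb of that site. A peak of GR-cell list 1 alone, 5034199 to 5034552, completed the window.

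**Figure D3:**
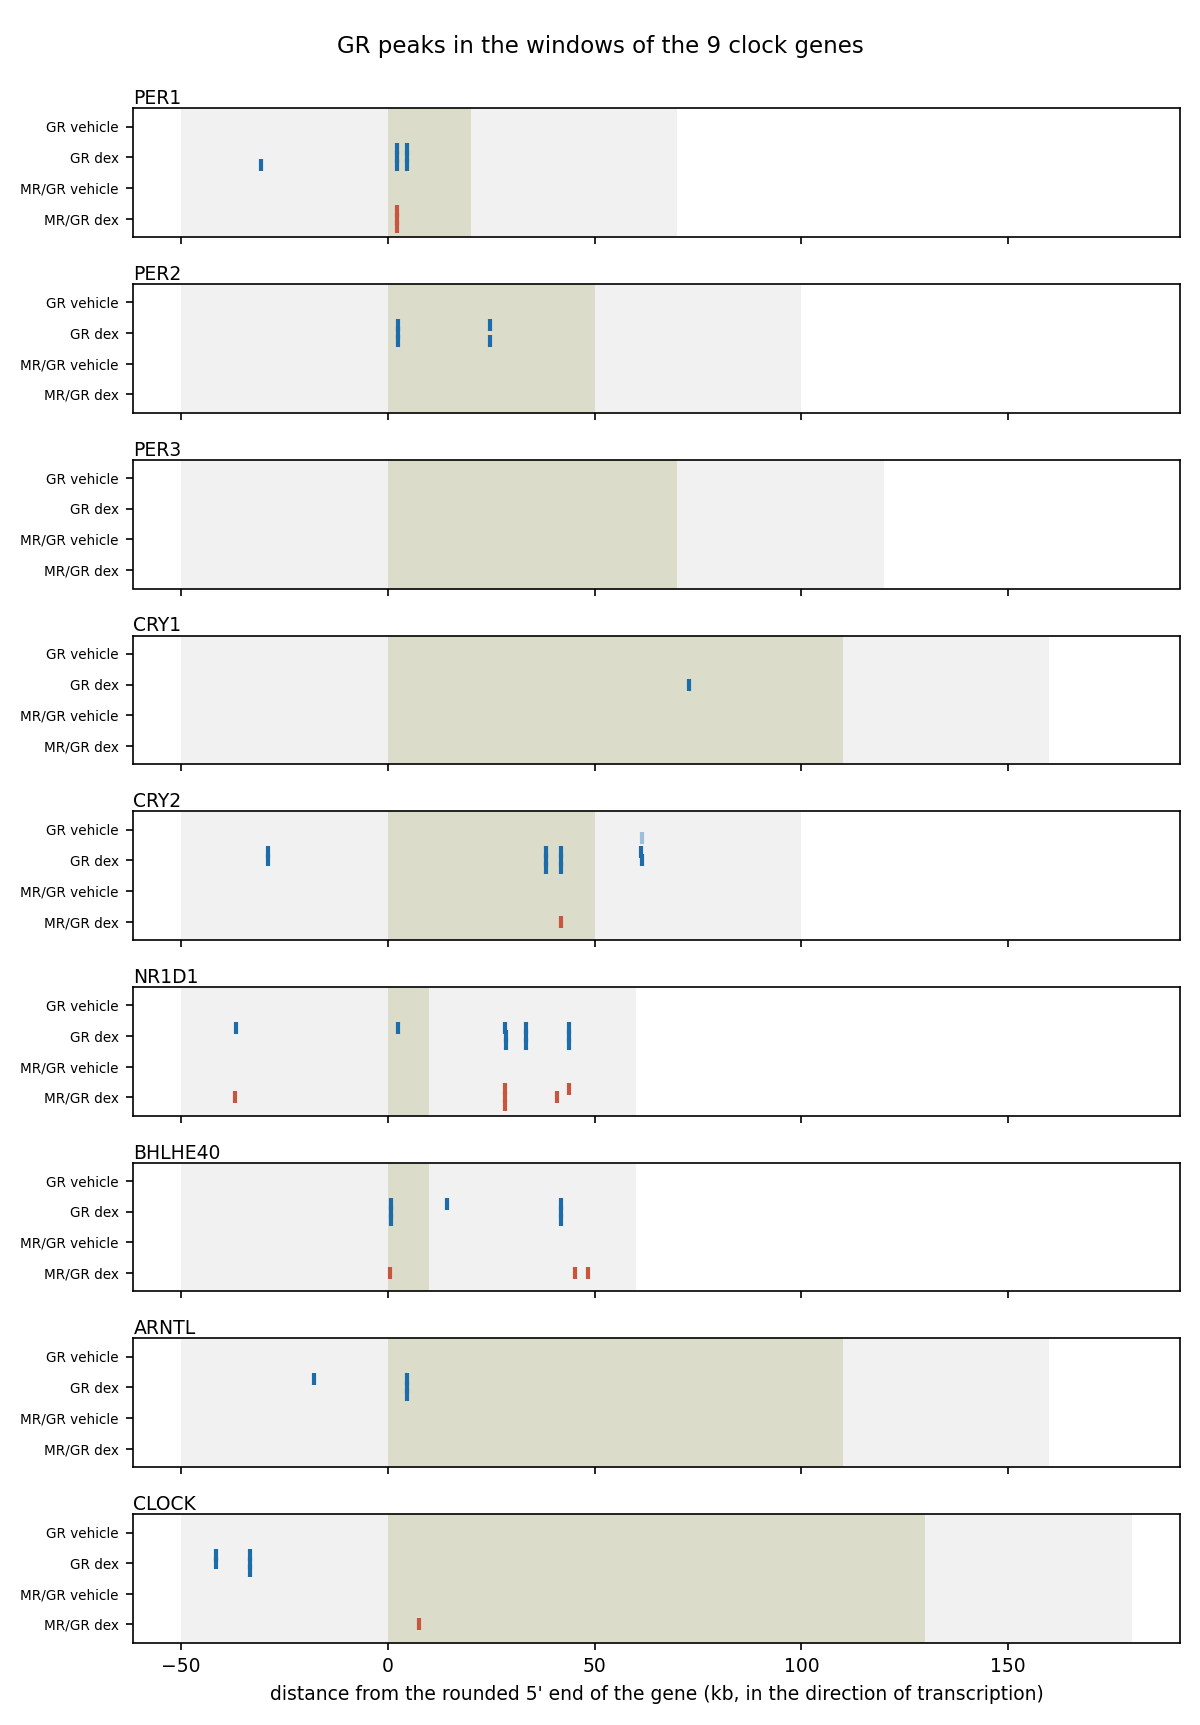
Peaks of the 12 lists in each gene window, by distance from the rounded 5′ end of the gene (x axis, kb, in the direction of transcription); rows are the combinations of line and treatment, with list 1 above lists 2 and 3 within a row, the gene body is darker and its flanks lighter grey. A column of marks in all 3 MR/GR-cell dexamethasone lists is seen at PER1 and at NR1D1, each under one in all 3 GR-cell lists.

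In order of mean peaks per GR-cell dexamethasone list, the windows ran from NR1D1 (3.67 ± 1.15, SD, n = 3) and CRY2 (3.33 ± 1.15) through BHLHE40 and PER1 (both 2.33 ± 0.577), CLOCK and PER2 (both 1.67 ± 0.577) and ARNTL (1.33 ± 0.577) to CRY1 (0.333 ± 0.577) and PER3 (0). The lists of each gene overlapped those of the next in this order. Windows were 110 to 230 kb long, and per 100 kb the sites held by the GR cell were 2.73 for NR1D1, 2.67 for CRY2, 1.82 for BHLHE40, 1.67 for PER1, 1.33 for PER2, 0.870 for CLOCK and 0.476 for ARNTL. The order was thus much the same by length. In 4 of 9 windows (PER1, PER2, CRY2 and ARNTL) every GR-cell list was above every MR/GR-cell list, and in 7 of 9 when MR/GR-cell list 2 was left out. Of the genome tiles of 162 kb, 47.1% were separated in this way, and 53.9% without that list. The 4 of 9 windows are thus near the background. The 7 of 9 lie above it, a difference that was not tested. The smallest adjusted p over the 9 windows was 0.225 (exact permutation tests, Benjamini-Hochberg), since 3 lists against 3 cannot go lower than 0.1 before adjustment.

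Most of the GR-cell sites found in every list of that line had no MR/GR-cell peak. Of 12 sites in 3 of 3 GR-cell lists, 7 (58.3%) had no MR/GR-cell peak, against 65.6% of all 22935 such sites. Another 3 had a peak in 1 MR/GR-cell list and 2 in all 3. List by list, the 12 sites had 3 peaks in MR/GR-cell list 1 (25%), 4 in list 2 (33.3%) and 2 in list 3 (16.7%), where all such sites had 14.5%, 30.9% and 24.6%. With 12 sites these shares move by several points for each site.

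**Figure D4:**
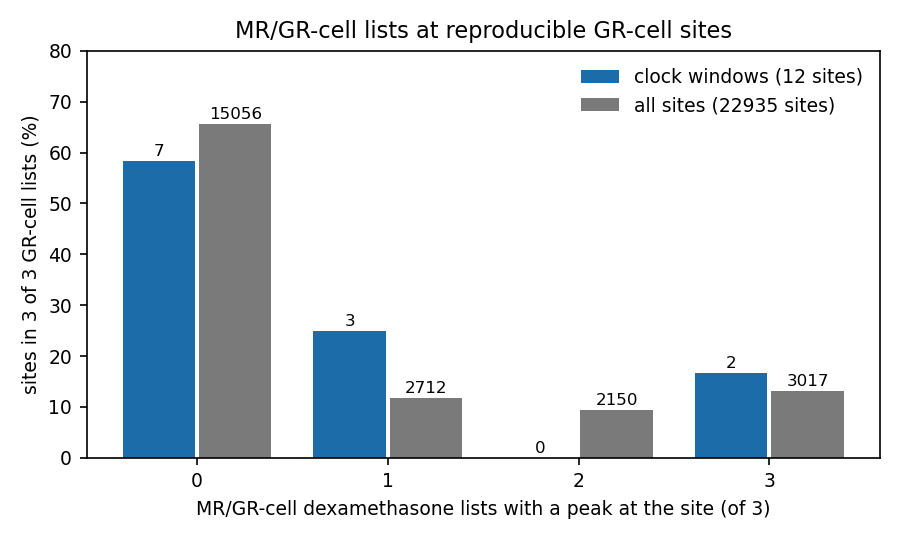
Sites in 3 of 3 GR-cell dexamethasone lists (y axis, percent) by the number of MR/GR-cell dexamethasone lists with a peak there (x axis), for the clock windows (blue, 12 sites) and for all sites (grey, 22935 sites), with the number of sites above each bar. In both sets most sites have no MR/GR-cell peak, 7 of 12 and 15056 of 22935.

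Sites without any GR-cell peak were 4 of the 26, against 5.17% of all sites, 1 each in the NR1D1 and CLOCK windows and 2 in the BHLHE40 window. The 2 in the BHLHE40 window lay 2.89 kb apart. The share in the clock windows was above that of all sites, but it rests on 4 sites and the difference was not tested. All 4 were in MR/GR-cell list 2 alone, as were 75.9% of all 2260 sites without a GR-cell peak. List 2 is the longest of the MR/GR-cell lists, with 10459 peaks. Both clock-window sites held by the MR/GR cell were also held by the GR cell, as were 90.9% of all 5965 MR/GR-cell sites.

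Many clock-window sites lay near another. Of the 16 GR-cell sites, 10 (62.5%) had another treated site within 10 kb, against 41.2% of all GR-cell sites. The 10 were the PER1 pair, a CRY2 pair, the NR1D1 group of 3, the CLOCK pair and 1 BHLHE40 site, so they are 5 places and not 10 independent ones, and the difference was not tested. The window edges left some sites just outside. The closest lay 4803 bp beyond the 5′ edge of the CLOCK window and was in every GR-cell list but absent from the MR/GR cell. From inside, the nearest to an edge lay 8544 bp from the same one.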

How the data were processed

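GR ChIP-seq peaks of 4 ChIP samples (2 lines, vehicle or dexamethasone), each with 3 deposited lists, were used. The 2 input samples were not analysed here. How many immunoprecipitations lie behind the 3 lists of a sample is unknown, so n = 3 counts lists. If they share an immunoprecipitation, the p-values cover technical spread only. Per the submitters' processing notes, the build was hg19, and the tools named are HOMER 4.8.3, Picard 1.115, Bowtie, Trim Galore 0.4 and SAMtools 1.3.1; their roles and settings, and the calling threshold, are not given in the sources used here. Each deposited list gives a chromosome, start and end per peak, without score or height, and was called on its own. Nearly every peak of a list has the same width, so widths carry no strength. Read depth is unknown: a peak that is missing may be absent or under the threshold.

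Peaks were counted by centre in fixed windows. Sites were merged over the whole genome (overlap of at least 1 bp, 43713 sites, the same number from bedtools 2.31.1), and merging was tested on simulated data. Tests were exact permutation tests over lists, two-sided, with a pseudocount of 1 on the log2 scale. Intervals are Wilson intervals (SciPy 1.17.1). All 9 genes are named, with each site of the windows. Members and lists were chosen with earlier results of these data known. Other clock genes, and the sequence under the peaks, were not analysed here, since no hg19 genome or annotation was used here. Python 3.11.15, numpy 2.4.6, pandas 2.3.3 and matplotlib 3.10.9 were used.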

Additional observations from a re-analysis of the deposited data

How the results depend on the processing

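Of 129 alternatives, 119 kept the direction and side of 0.05 of a test, a count within 1.5 times or a share within its interval. With 3 lists against 3 no test can pass 0.05, so this says little about those tests. Over gene bodies alone (windows trimmed by 50 kb at each end) the GR cell held 8 clock sites in place of 16, the MR/GR cell 1 in place of 2, genes with an MR/GR-cell site fell to 1, vehicle peaks to 0, and the difference in clock-window peaks per 10000 went from 1.28 to -0.00457; fewer bases are counted there. Without the NR1D1 window that difference was -0.82. With a peak in at least 1 of 3 lists, the MR/GR cell had 10 sites in 5 genes. Leaving out 1 list gave -2.34 to -1.47 for the log2 difference between the treated lines, 12 to 16 GR-cell sites and 4 to 7 windows without overlap, with 7 when MR/GR-cell list 2 was left out. Between GR-cell and MR/GR-cell lists, the list numbers gave no sign of pairing (correlations of same-numbered lists over all sites -0.0249 to 0.103, of others -0.126 to 0.111). With so few lists this cannot exclude pairing, and pairing of vehicle with dexamethasone lists was not looked at. A replicate block by list number left the response over both lines at 3.05, and its two-sided sign-flip p (exact) was 0.25, the floor for 3 blocks; it altered no other call. Alternatives for that response, for the windows one by one and for vehicle peaks were chosen after seeing the data. The few peaks per window and the unknown read depth limit every count.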
